A study of Homo sapiens with 6 samples.

Results

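The ubiquitin-conjugating enzymes (E2 enzymes) of the *UBE2* family were compared between large physaliferous and small non-vacuolated chordoma cells. Members were the genes whose platform symbol starts with UBE2 and whose probe set names no other gene, with the brightest probe set over all 6 arrays kept for each gene. This gave 29 genes from 30 such probe sets, of 18404 genes measured by 19158 probe sets with a single symbol and of 32321 probe sets in all. By the RefSeq annotation 24 members are protein-coding and 5 are transcribed pseudogenes.

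Ubiquitin reaches its targets in a relay. An E1 enzyme activates ubiquitin, an E2 enzyme takes it over on a cysteine, and an E3 ligase brings the loaded E2 to the target protein. The E2 often sets which chain is built, and with it whether the target is degraded by the proteasome, relocated or recruited to DNA repair. A few E2 enzymes carry ubiquitin-like proteins instead, such as ISG15, NEDD8 or SUMO.

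The cells came from MUG-Chor1, an established line from a sacrococcygeal chordoma, a bone tumor with notochord features. Large vacuolated cells (pools 2, 3 and 4) and small cells without vacuoles (pools 5, 6 and 7) were picked by hand in pools of 20, amplified with a NuGEN kit and hybridized to Affymetrix Human Gene ST arrays, 1 array a pool. The methods speak of quadruplicates, whereas 3 pools of each phenotype were analyzed here. Both phenotypes come from 1 cell line, and the sources used here do not say whether separate cultures were picked. The p-values thus reflect the spread among these 6 pools, which may be technical.

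The deposited values are log2 expression levels, and a level of 6.64, the log2 of 100, was taken as the floor above which a gene was counted as expressed. Array medians over all probe sets lay between 6.64 and 6.68 in large pools and between 6.73 and 6.76 in small pools. All 7 chordoma markers stood above the floor on all 6 arrays. Above it on every array were 1 of 6 measured leukocyte markers, 1 of 5 endothelial markers and 0 of 2 blood cell markers. The leukocyte marker was *CD68*, a lysosomal protein of macrophages, which had 8.97, 8.67 and 9.00 in large pools against 8.71, 8.16 and 7.97 in small pools. Small pool 5 exceeded large pool 3, and the log2 fold change was 0.60 (unadjusted p = 0.032, adjusted p = 0.33 by limma). The other 5 leukocyte markers each had an unadjusted p of 0.05 or more (limma). All pools were picked from 1 cell line, and which cells gave the *CD68* signal was not tested.

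*UBE2J1*, a membrane-anchored E2 of the endoplasmic reticulum that serves the degradation of misfolded proteins, had the smallest p of all members and was higher in large cells. *UBE2T*, the E2 that works with *FANCL* in the Fanconi anemia DNA repair pathway, was lower in large cells, as was the transcribed pseudogene *UBE2Q2P1*. None of the 29 members passed the test with limma and Benjamini-Hochberg adjustment over all genes, which asked for an adjusted p under 0.05 together with a log2 fold change beyond 1 in size. Neither did any other gene, the called share being 0% of 18404 with a smallest adjusted p of 0.14. Without adjustment, 1 member had a p under 0.05 in the direction of higher values in large pools and 2 in the direction of lower values. Among all genes tested 4.33% were higher (797 genes) and 10.5% lower (1934 genes) by that rule. The members' counts were therefore close to those shares.

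The split of all genes depended on the scaling. After a further quantile normalization 834 genes were higher and 1086 lower, whereas with every array centred on its own median 1207 were higher and 718 lower. The member counts stayed at 1 and 2 under both. Groups without overlap were found for 1 member above (5.48% of all genes) and for 2 members below (21.6% of all genes).

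**Figure D1:**
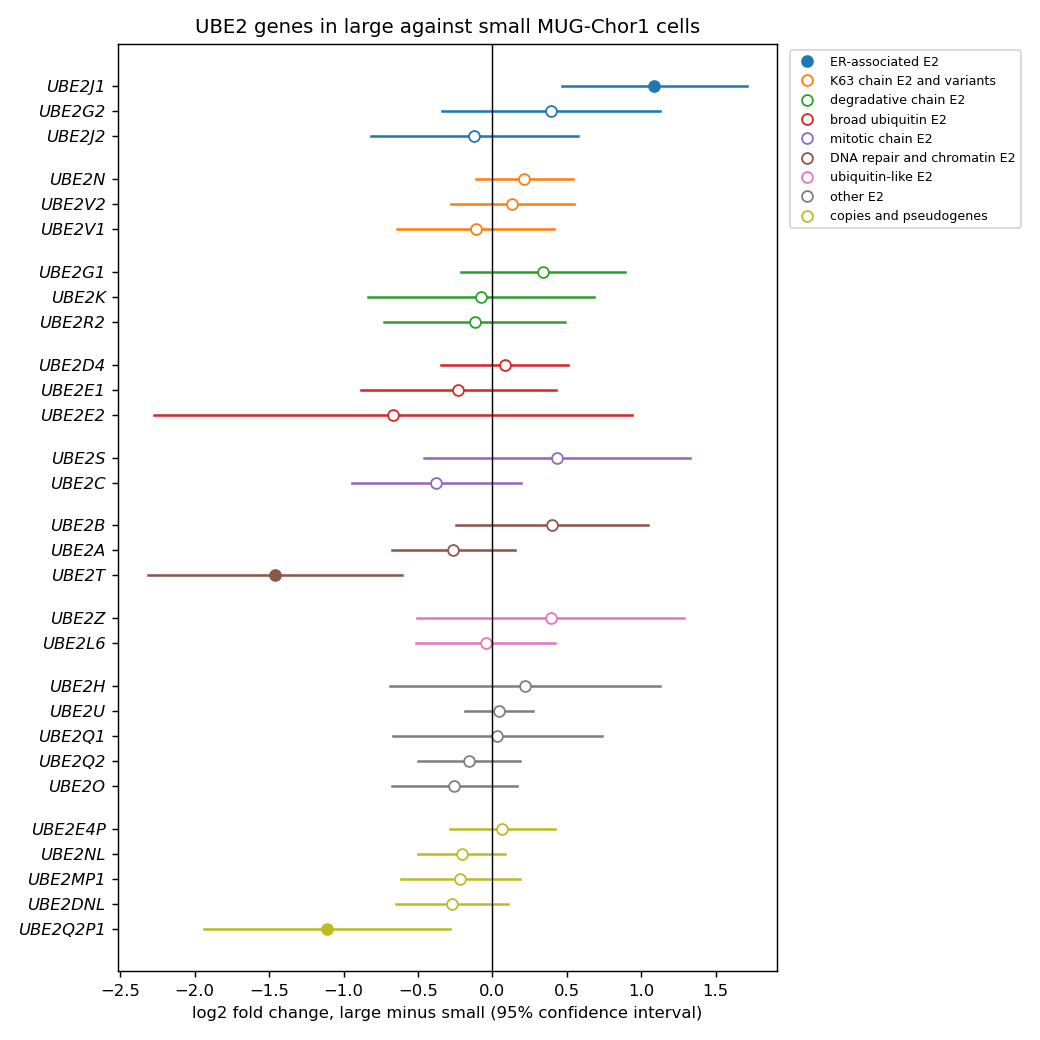
Log2 fold change of each of the 29 *UBE2* genes, large minus small, with its 95% confidence interval from limma, grouped by role from top to bottom. Filled points have an unadjusted p under 0.05: *UBE2J1* at 1.09 lies to the right, *UBE2T* at -1.46 and *UBE2Q2P1* at -1.11 to the left, and the intervals of the other 26 members cross 0.

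Most members differed little between the phenotypes. Over the 29 genes 13 were higher and 16 lower in large pools, with a median log2 fold change of -0.08, beside a median of -0.11 over all genes tested, of which 66.4% were lower. The 24 protein-coding members divided evenly, 12 higher and 12 lower, with a median of -0.01. Apart from *UBE2J1*, *UBE2T* and *UBE2Q2P1*, the log2 fold changes ran between -0.67 and 0.43, with unadjusted p between 0.13 and 0.91 and adjusted p between 0.40 and 0.96 (limma, 3 pools each). For 20 members the 95% interval lay wholly within 1 log2 unit of no difference, and for 9 it reached further, namely *UBE2J1*, *UBE2T*, *UBE2Q2P1*, *UBE2E2*, *UBE2B*, *UBE2G2*, *UBE2H*, *UBE2S* and *UBE2Z*. The spread within a phenotype had a median SD of 0.34 for the 22 members above the floor on all arrays, against 0.20 for the 7990 genes that met the same condition. A further 5 members passed the floor on some arrays, namely *UBE2J2*, *UBE2E2*, *UBE2O*, *UBE2E4P* and *UBE2Q2P1*, and *UBE2U* and *UBE2MP1* on none.

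The promoter windows of *UBE2T* and *UBE2J1*, chosen after their values were seen, are shown because these were the coding members with the smallest p in each direction. Both windows were taken from RefSeq (GRCh38.p14) and span 300 bases on the minus strand, 250 before the gene start and 50 after it, chr1:202341887-202342186 for *UBE2T* and chr6:89352673-89352972 for *UBE2J1*. Capitals mark the letters TTTGAA, a form of the cell cycle genes homology region, and CCAAT, the CCAAT box, both searched on either strand.
UBE2T: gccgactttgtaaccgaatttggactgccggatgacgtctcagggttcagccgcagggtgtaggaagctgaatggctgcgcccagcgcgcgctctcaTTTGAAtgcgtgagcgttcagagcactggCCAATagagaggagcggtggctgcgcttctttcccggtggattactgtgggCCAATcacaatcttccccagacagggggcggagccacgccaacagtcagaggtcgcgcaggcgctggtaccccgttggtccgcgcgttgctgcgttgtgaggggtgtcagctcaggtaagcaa
UBE2J1: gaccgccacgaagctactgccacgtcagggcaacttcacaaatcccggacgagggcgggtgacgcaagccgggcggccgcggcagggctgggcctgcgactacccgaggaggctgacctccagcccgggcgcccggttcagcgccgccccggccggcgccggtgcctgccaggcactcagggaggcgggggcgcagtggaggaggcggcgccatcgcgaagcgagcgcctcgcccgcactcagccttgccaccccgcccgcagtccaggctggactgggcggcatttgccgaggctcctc
The *UBE2T* window held TTTGAA once, 153 bases before the gene start, and CCAAT at 124 and 73 bases before it. The *UBE2J1* window held neither motif. Of 35116 promoter windows of the same length 15.2% held TTTGAA, 34.6% held CCAAT and 5.90% held both. A window was given for 19 members, of which *UBE2T* and *UBE2U* held TTTGAA, and *UBE2T*, *UBE2U*, *UBE2E1*, *UBE2Z* and *UBE2S* held CCAAT. A match of letters describes the sequence only.

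*UBE2J1* belongs to the E2 enzymes of the endoplasmic reticulum. Its level was 8.49, 9.02 and 8.39 in large pools 2, 3 and 4, against 7.72, 7.82 and 7.10 in small pools 5, 6 and 7. All large pools stood above all small pools, and all 6 lay above the floor. The means were 8.63 ± 0.34 in large pools and 7.55 ± 0.39 in small pools (SD, n = 3 each). This is a log2 fold change of 1.09 ± 0.26 (SE, 95% interval 0.47 to 1.71), or 2.12-fold, with an unadjusted p of 0.0050 and an adjusted p of 0.32 (limma). *UBE2J1* kept its direction in all 13 alternative settings, with p between 0.0036 and 0.028 and adjusted p between 0.30 and 0.49.

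The other E2 enzymes of the same compartment did not show groups apart. *UBE2G2*, a soluble E2 of the same degradation route, had 8.23, 8.21 and 7.86 in large pools against 8.20, 7.07 and 7.86 in small pools. Small pool 6 was the low one, and the log2 fold change was 0.39 (95% interval -0.34 to 1.12), or 0.07 without that pool and 0.64 without small pool 5. *UBE2J2*, the membrane-anchored paralog of *UBE2J1*, differed by -0.12 (95% interval -0.81 to 0.57) and lay below the floor in large pool 3. Without that pool its difference was 0.20. Among E3 ligases of the endoplasmic reticulum *RNF139* was higher by 0.43 (unadjusted p = 0.027, adjusted p = 0.32 by limma), with 8.79, 8.49 and 8.80 in large pools against 8.43, 8.33 and 8.05 in small pools. Its groups did not overlap. *SYVN1*, the HRD1 ligase, and *MARCHF6*, both chosen after their values were seen, differed by 0.01 each.

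*UBE2T* showed the largest log2 difference of all members. Its level was 8.63, 7.95 and 8.57 in large pools, against 10.55, 9.65 and 9.33 in small pools. Every large pool stood below every small pool, and small pool 5 was the highest. The means were 8.39 ± 0.38 in large pools and 9.84 ± 0.63 in small pools (SD, n = 3 each), a log2 fold change of -1.46 ± 0.35 (SE, 95% interval -2.31 to -0.61), with an unadjusted p of 0.0056 and an adjusted p of 0.32 (limma). It kept its direction in all 13 alternatives, with p between 0.0037 and 0.022. In pooled cells, fewer cells that express a gene and less of its RNA in each cell cannot be told apart.

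The measured partners of *UBE2T* in the Fanconi anemia pathway had overlapping groups. *FANCL*, the E3 ligase that *UBE2T* serves, had 7.52, 8.51 and 8.25 in large pools against 7.86, 7.56 and 8.08 in small pools. This is a log2 fold change of 0.26 (unadjusted p = 0.39, adjusted p = 0.62 by limma). *FANCI*, which the pair ubiquitinates, had 7.09, 6.93 and 8.58 in large pools against 7.59, 7.66 and 6.52 in small pools. Large pool 4 was the highest and small pool 7 the lowest of these. Both genes were chosen after their values were seen, and *FANCD2* was not analyzed here.

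*UBE2T* shares its class with the RAD6 homologs *UBE2A* and *UBE2B*, near-identical proteins that mark histone H2B and the replication clamp *PCNA*. *UBE2B* had 9.64, 9.33 and 9.69 in large pools against 9.06, 9.70 and 8.71 in small pools. Small pool 6 was the highest of all 6 and the other small pools the lowest, and the log2 fold change was 0.40 (95% interval -0.25 to 1.04, unadjusted p = 0.18, adjusted p = 0.45 by limma). Without small pool 6 the difference was 0.67, with an unadjusted p of 0.012 and an adjusted p of 0.47, and without small pool 7 it was 0.17. *UBE2A* differed by -0.26 (95% interval -0.67 to 0.15). *RNF8*, an E3 ligase of the DNA damage response, was higher in large pools by 0.49 (unadjusted p = 0.040, adjusted p = 0.33 by limma) and was chosen after its values were seen. Its groups overlapped, since small pool 6 at 8.40 exceeded large pool 2 at 8.34. The listed ligases *RAD18*, *RNF20* and *RNF40*, likewise chosen, differed by 0.59, 0.24 and -0.31 (unadjusted p = 0.34, 0.43 and 0.14 by limma). Their groups overlapped too.

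**Figure D2:**
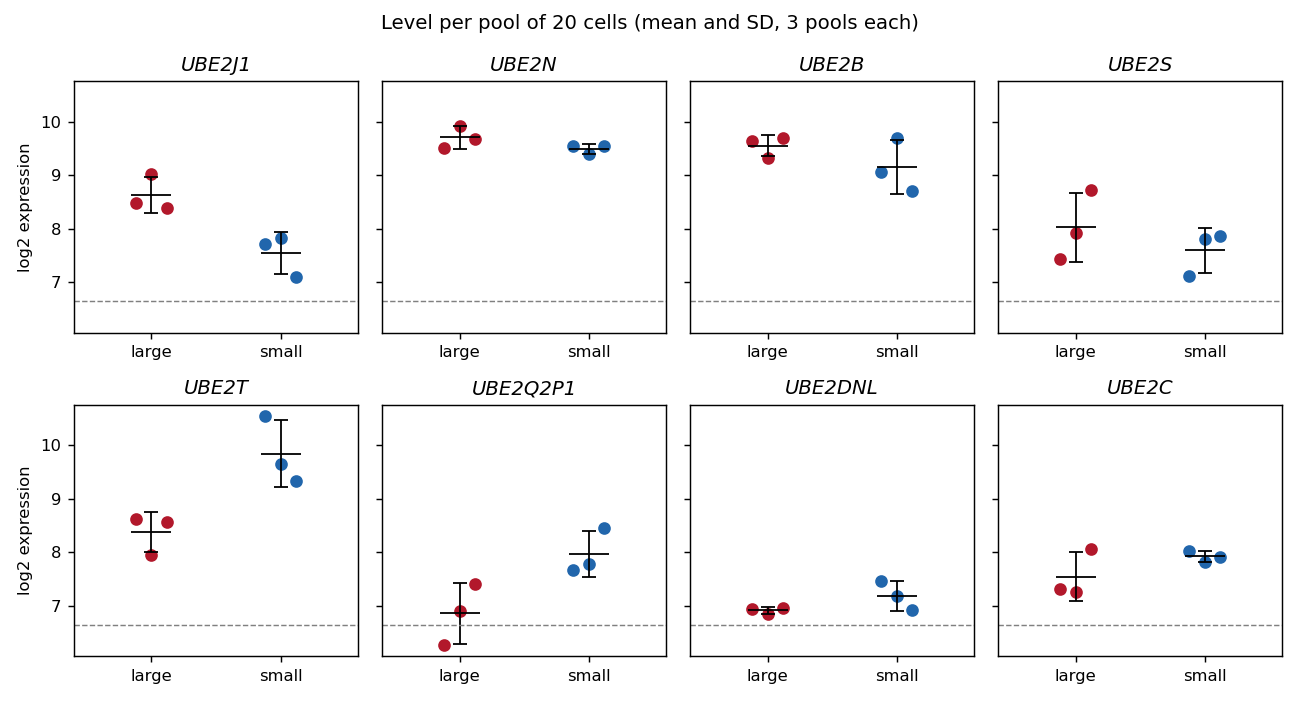
Level per pool on the log2 scale for 8 *UBE2* genes, large pools in red at left and small pools in blue at right. Horizontal bars are the mean and error bars the SD over 3 pools, with a dashed line at the floor of 6.64. Only *UBE2J1*, *UBE2T* and *UBE2Q2P1* of these genes show groups that do not overlap.

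*UBE2C* and *UBE2S* serve the anaphase-promoting complex, the ligase that drives cells out of mitosis. *UBE2C* starts the ubiquitin chains and *UBE2S* extends them. *UBE2C* had 7.32, 7.25 and 8.07 in large pools against 8.03, 7.81 and 7.92 in small pools. Large pools 2 and 3 were the lowest of all 6 and large pool 4 the highest. The log2 fold change was -0.38 (95% interval -0.94 to 0.19, unadjusted p = 0.16, adjusted p = 0.42 by limma). Without large pool 4 it was -0.64, with an unadjusted p of 0.0029 and an adjusted p of 0.38, and without large pool 3 it was -0.23.

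*UBE2S* had 7.44, 7.93 and 8.72 in large pools against 7.11, 7.82 and 7.86 in small pools. Large pool 4 was again the highest, the groups overlapped, and the log2 fold change was 0.43 (95% interval -0.46 to 1.33, unadjusted p = 0.28, adjusted p = 0.54 by limma). It was 0.09 without large pool 4, 0.19 without small pool 5 and 0.73 without large pool 2. This value comes with a doubt about what was measured. *UBE2S* lies on chromosome 19, but the 10 gene-named probe sets with the nearest numbers on the array all belong to chromosome 17, whereas for the dimmer *UBE2S* probe set all 10 belong to chromosome 19. The dimmer one had 7.08, 6.12 and 7.51 in large pools against 6.58, 6.99 and 6.70 in small pools, a log2 difference of 0.15 with overlapping groups. *UBE2V1* was the only other member whose neighbors did not share its chromosome.

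The proliferation markers were split among the large pools in the same way as *UBE2C*. The median level over all 26 listed markers was 6.65, 6.70 and 8.45 in large pools against 8.19, 8.45 and 7.65 in small pools. Large pools 2 and 3 were low, and large pool 4 was level with small pool 6. The values of the list summed on the linear scale were 4484, 5271 and 15953 in large pools against 12779, 14957 and 12230 in small pools. Of the 26 markers 4 were higher and 22 lower in large pools, and the median log2 fold change was -0.59. Only 1 of the lower ones had an unadjusted p under 0.05. Without large pool 4 there were 14 such genes and the median was -1.27, whereas it was -0.36 without large pool 2 or without large pool 3.

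With all pools included that marker was *CDKN3*, a phosphatase that acts on cyclin-dependent kinases. It had 5.54, 7.20 and 6.13 in large pools against 8.29, 8.68 and 9.15 in small pools, where large pools 2 and 4 lay below the floor, with a log2 fold change of -2.42 (unadjusted p = 0.0015, adjusted p = 0.32 by limma). Its promoter window, chosen after its values were seen, held TTTGAA once and CCAAT 2 times, as that of *UBE2T* did. No other marker's window was looked at singly, and 5.90% of all windows held both motifs. Whether the 2 genes share a control was not tested. *UBE2T* was low in large pool 4 too, where the proliferation markers and *UBE2C* were high. The part of proliferation in the *UBE2T* and *UBE2C* values was not tested.

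The ligase partners of the mitotic E2 enzymes were measured as well. *ANAPC2*, the cullin subunit of the anaphase-promoting complex, had 6.65, 6.56 and 6.49 in large pools against 7.24, 6.90 and 6.95 in small pools. Large pools 3 and 4 lay under the floor. All large pools stood below all small pools, by -0.46 on the log2 scale (unadjusted p = 0.0094, adjusted p = 0.32 by limma). *ANAPC11*, its RING subunit, differed by 0.02, and the activators *CDC20* and *FZR1* by -0.06 and -0.24. The large pools of *FZR1* also lay below all its small pools. These last genes were chosen after their values were seen.

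**Figure D3:**
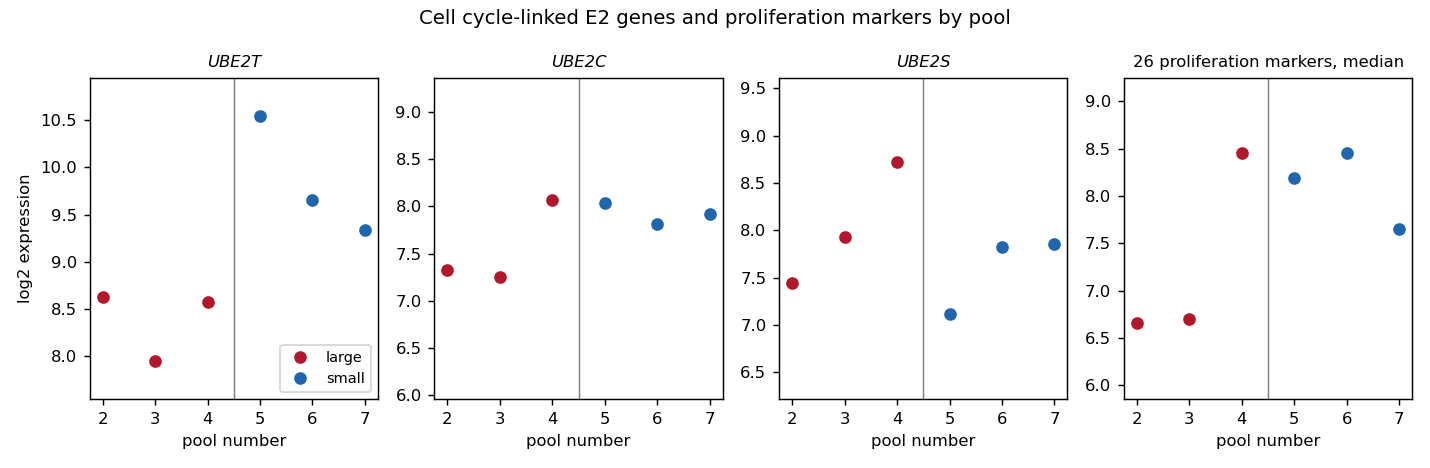
Log2 level of *UBE2T*, *UBE2C*, *UBE2S* (brightest probe set) and the median of 26 proliferation markers in each pool, large pools 2 to 4 in red left of the line and small pools 5 to 7 in blue right of it. Each panel has its own axis of equal length. Large pool 4 is at 8.07 for *UBE2C* and 8.45 for the markers, the level of the small pools, but at 8.57 for *UBE2T*, below all small pools.

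The members classed here as E2 enzymes of degradative chains, *UBE2G1*, *UBE2K* and *UBE2R2*, showed no difference beyond the spread between pools. *UBE2J1* and *UBE2G2*, which also serve degradation, are described above. *UBE2G1*, which extends K48-linked chains with cullin ligases, differed by 0.34 (95% interval -0.21 to 0.89), or between 0.17 and 0.52 with a pool left out. *UBE2K*, which builds the same linkage, differed by -0.08 (95% interval -0.83 to 0.68), with small pool 5 the highest. *UBE2R2*, a paralog of *CDC34* that works with SCF ligases, differed by -0.12 (95% interval -0.73 to 0.49). The signs of *UBE2K* and *UBE2R2* turned when small pool 5 or large pool 3 was left out.

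*UBE2N*, also known as UBC13, builds K63-linked chains together with a catalytically inactive variant, *UBE2V1* or *UBE2V2*. *UBE2N* had 9.51, 9.93 and 9.69 in large pools against 9.54, 9.39 and 9.55 in small pools. Large pool 3 was the highest and large pool 2 lay among the small pools, so that the log2 fold change of 0.22 (95% interval -0.11 to 0.54, unadjusted p = 0.16, adjusted p = 0.43 by limma) was within the spread. *UBE2V2* differed by 0.13 (95% interval -0.28 to 0.55) and *UBE2V1* by -0.11 (95% interval -0.64 to 0.41). The neighbors of this *UBE2V1* probe set do not share its chromosome, as said above. A dimmer probe set that names *UBE2V1* together with *PEDS1* had means of 6.67 in large and 6.54 in small pools. It differed by 0.12, the opposite direction, with overlapping groups.

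Of the broad E2 enzymes, which work with many RING ligases, *UBE2D4* differed by 0.08 and *UBE2E1* by -0.23. *UBE2E2* was the most variable member, with 7.39, 6.25 and 6.82 in large pools against 7.31, 6.29 and 8.85 in small pools. Small pool 7 was the highest by far, and the log2 fold change of -0.67 (95% interval -2.28 to 0.94) was 0.01 without it, -0.38 without large pool 3 and -1.26 without small pool 6. A probe set that names both *UBE2E4P* and *UBE2E3*, and therefore is no member, had 10.79, 10.59 and 10.41 in large pools against 10.28, 10.32 and 10.26 in small pools. All large pools were above all small pools there, by 0.31, and which of these genes it measured was not tested. The probe set that names *UBE2E4P* alone lay between 6.45 and 6.91.

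*UBE2L6* and *UBE2Z* are the members that carry ubiquitin-like proteins. *UBE2L6*, the interferon-induced E2 for ISG15, had 7.49, 7.44 and 7.26 in large pools against 7.76, 7.50 and 7.06 in small pools. The pools overlapped closely, with a log2 fold change of -0.04 (95% interval -0.51 to 0.42). Of 20 measured interferon-stimulated genes 5 were higher and 15 lower in large pools, with a median of -0.23, or -0.10 without small pool 7. At an unadjusted p under 0.05 there were 0 higher and 3 lower, beside 10.5% of all genes lower. After further quantile normalization or centring there was 1 in each direction, with the floor filter there were 0, and without large pool 3 or large pool 4 there was 1 lower. The 3 lower genes were *MX2* at -0.40 and *USP18* at -0.29, both below the floor on all 6 arrays, and *IFI6* at -0.42, above it in 1 large and 2 small pools. *ISG15* itself differed by -0.05. Neither of the 2 promoter windows given for *UBE2L6* held the core of the interferon-stimulated response element, searched on both strands, which 3.57% of all windows held.

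*UBE2Z* receives ubiquitin and the ubiquitin-like FAT10 from the E1 enzyme *UBA6*. It had 8.84, 8.15 and 8.01 in large pools against 7.22, 8.24 and 8.36 in small pools. Small pool 5 was the low one, and the log2 fold change was 0.39 (95% interval -0.50 to 1.29), or 0.03 without that pool. Without large pool 2 it was 0.14 and without small pool 7 it was 0.60. *UBA6* had 8.83, 8.24 and 8.48 in large pools against 8.08, 7.26 and 8.13 in small pools. All large pools stood above all small pools, by 0.70 (unadjusted p = 0.045, adjusted p = 0.34 by limma). *UBD*, which encodes FAT10 and was chosen after its values were seen, reached 11.15 in small pool 6 and lay between 5.35 and 8.38 in the other pools.

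None of the remaining coding members had an unadjusted p under 0.05 (limma), though the interval of *UBE2H* was wide. *UBE2H*, the E2 of the CTLH ligase, differed by 0.22 (95% interval -0.68 to 1.12) with small pools from 8.67 to 10.22, and by -0.17 without small pool 6. *MAEA*, a RING subunit of that ligase, had 6.51, 6.90 and 6.74 in large pools against 7.05, 7.36 and 7.09 in small pools. Large pool 2 lay under the floor. All large pools were lower, by -0.45 on the log2 scale (unadjusted p = 0.022, adjusted p = 0.32 by limma). *RMND5A*, another listed subunit of that ligase and chosen after its values were seen, differed by 0.02 with overlapping groups. *UBE2Q1* and *UBE2Q2*, large E2 enzymes, differed by 0.03 and -0.16. *UBE2O*, a hybrid of E2 and E3, differed by -0.26 and was above the floor in small pool 6 alone. *UBE2U* stayed between 3.26 and 3.43, below the floor on all 6 arrays.

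The 5 transcribed pseudogenes had a median log2 fold change of -0.22. *UBE2Q2P1* had 6.27, 6.90 and 7.40 in large pools against 7.66, 7.79 and 8.46 in small pools. Every large pool stood below every small pool, and large pool 2 was under the floor. The means were 6.86 ± 0.56 in large pools and 7.97 ± 0.43 in small pools (SD, n = 3 each), a log2 fold change of -1.11 ± 0.34 (SE, 95% interval -1.94 to -0.28), with an unadjusted p of 0.017 and an adjusted p of 0.32 (limma). Its near-copy, the coding gene *UBE2Q2*, differed by -0.16 (95% interval -0.50 to 0.19), with 8.33, 8.34 and 8.15 in large pools against 8.63, 8.47 and 8.20 in small pools. Probe sets of near-copies can share signal, which was not tested here.

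*UBE2DNL* had 6.95, 6.84 and 6.95 in large pools against 7.46, 7.18 and 6.92 in small pools. Small pool 7 lay among the large pools, and the log2 fold change was -0.27 (95% interval -0.65 to 0.11, unadjusted p = 0.13, adjusted p = 0.40 by limma). *UBE2NL*, an intronless copy of *UBE2N*, differed by -0.21, *UBE2MP1* by -0.22 with all pools below the floor, and *UBE2E4P* by 0.07.

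The other steps of the relay were read from lists, with the 4.33% higher and 10.5% lower of all genes at an unadjusted p under 0.05 as the background. No listed gene passed the adjusted test. Among E1 enzymes 8 of 10 were measured, 4 higher and 4 lower, and 2 of them, *UBA6* and *UBA3*, had an unadjusted p under 0.05 with higher values in large pools. That number was 1 after further quantile normalization, with the trend and robust variance model and without large pool 2, large pool 3, small pool 6 or small pool 7, and without large pool 4 it was 0, with 1 gene lower. *UBA3*, the catalytic subunit of the NEDD8 E1, had 9.23, 9.63 and 9.70 in large pools against 9.12, 9.18 and 8.62 in small pools. All large pools were higher, by 0.55 (unadjusted p = 0.035, adjusted p = 0.33 by limma). *NAE1*, its regulatory partner, chosen after its values were seen, differed by -0.07. In the other direction *UBA7*, likewise chosen, had all large pools below all small pools, by -0.21.

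Of E2 enzymes and variants with other symbols 8 of 8 were measured, 5 higher and 3 lower, with a median of 0.24. At an unadjusted p under 0.05 there were 2 higher and 0 lower. The 2 became 1 without large pool 2, large pool 3 or small pool 6. They also became 1 under the filter on the floor and an interquartile range above 0.5, which left 6 genes. After centring there were 3, and without small pool 5 there were 3 higher and 1 lower. *AKTIP*, an inactive E2 variant of a vesicle trafficking complex, had 8.88, 9.19 and 8.40 in large pools against 8.17, 7.83 and 7.17 in small pools. All large pools were higher, by 1.10 (unadjusted p = 0.012, adjusted p = 0.32 by limma). *ATG3*, the E2 that attaches LC3 to lipid in autophagy, was higher by 0.51 (unadjusted p = 0.031, adjusted p = 0.33), with 10.25, 10.27 and 10.04 in large pools against 10.06, 9.52 and 9.46 in small pools. Its groups overlapped, since small pool 5 exceeded large pool 4.

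Of 44 listed E3 ligases and ligase subunits that act with these E2 enzymes 41 were measured, 29 higher and 12 lower, with a median log2 fold change of 0.22, or between 0.07 (without small pool 6) and 0.22 with a pool left out. It was 0.14 without large pool 3 and 0.13 without small pool 5. At an unadjusted p under 0.05 there were 7 higher and 2 lower. The 7 became 4 after further quantile normalization, 5 with the trend and robust variance model and 9 after centring. With a pool left out there were between 3 and 7. They became 0 under the filter on the floor and an interquartile range above 0.5, which left 11 genes of the list. By the same rule 11.1% of all genes kept by that filter were higher. The main comparison, without a filter, is meant in what follows. The 2 lower genes are *ANAPC2* and *MAEA*, and the 7 higher ones include *RNF139* and *RNF8*.

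The other 5 higher genes act in or on cullin ligases. *DCUN1D1*, which promotes the attachment of NEDD8 to cullins, had 9.25, 9.49 and 9.09 in large pools against 8.44, 8.15 and 8.64 in small pools. All large pools were higher, by 0.87 (unadjusted p = 0.0021, adjusted p = 0.32 by limma), the smallest p on the list. *RNF7*, a RING subunit of cullin ligases, had 7.75, 8.03 and 7.42 in large pools against 6.74, 6.12 and 7.37 in small pools, higher by 0.99 (unadjusted p = 0.024, adjusted p = 0.32).

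*DCUN1D5*, a paralog of *DCUN1D1*, was higher by 0.61 (unadjusted p = 0.036, adjusted p = 0.33 by limma), and *BTRC*, a substrate receptor of SCF ligases, by 0.43 (unadjusted p = 0.033, adjusted p = 0.33). *RBX1*, the paralog of *RNF7*, was chosen after its values were seen. It had 9.78, 9.26 and 9.09 in large pools against 7.84, 8.95 and 8.75 in small pools, higher by 0.86 (unadjusted p = 0.040, adjusted p = 0.33). Large pools stood above all small pools for these 5 genes, which had been picked by their small p. Of the 41 measured genes on the list 7 had all large pools above and 4 had all below. The shares over all genes were 5.48% and 21.6%. The list was chosen with earlier results of these data known, so these counts are a description only. The E2 enzymes of the NEDD8 route, *UBE2M* and *UBE2F*, are no members, and the probe set naming *UBE2F* together with its readthrough gene differed by 0.45 with overlapping groups.

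Ubiquitin and ubiquitin-like genes were measured for 8 of 14, with 4 higher, 4 lower, none at an unadjusted p under 0.05 in either direction and a median of -0.01. *UBB*, a polyubiquitin gene chosen after its values were seen, had 12.56, 12.50 and 12.47 in large pools against 12.34, 12.50 and 12.55 in small pools. The pools were nearly level, with a difference of 0.04.

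**Figure D4:**
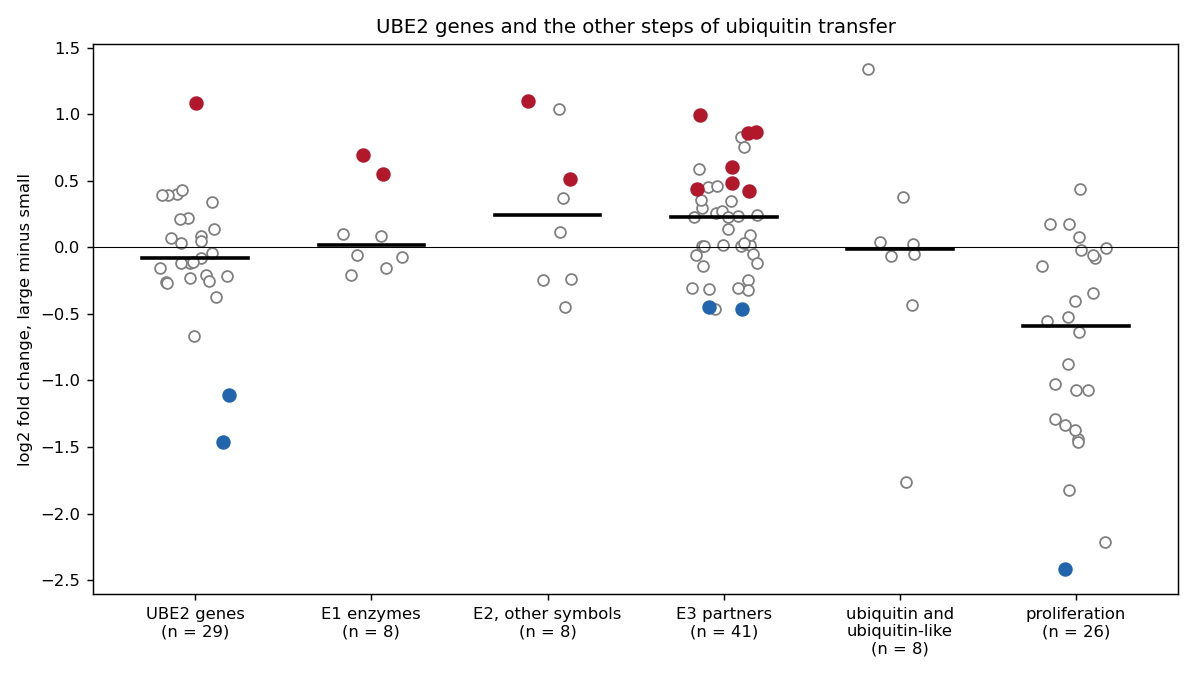
Log2 fold change, large minus small, of each measured gene of the *UBE2* family and of 5 lists, with a black bar at each median. Red points are higher and blue points lower in large pools at an unadjusted p under 0.05, and open points are all others, with n genes measured below each name. Medians are -0.08 for the *UBE2* genes, 0.22 for the E3 partners and -0.59 for the proliferation markers.

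*UBE2D1*, *UBE2D2*, *UBE2D3*, *UBE2L3*, *UBE2M*, *UBE2W* and *UBE2QL1* were not analyzed here, since the platform table names no probe set for them alone.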

How the data were processed

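The deposited values are log2 expression levels that the authors made by robust multi-array averaging (background correction, quantile normalization over the arrays, median polish). Their chip definition file, not given in the sources used here, sets which probes form a probe set. No column was left unused (0). Large minus small was tested in R 4.3.3 with the moderated test of limma 3.58.1 over all 18404 genes, 1 probe set per gene, without covariate and with Benjamini-Hochberg adjustment. A call asked for an adjusted p under 0.05 and a log2 fold change beyond 1 in size. Unlike the methods, no filter on low or steady genes was applied, so that every member was tested, and the filter (25% of arrays above the floor, interquartile range above 0.5) was an alternative. With 3 pools against 3 an exact permutation test cannot go below 0.1. Precision is limited by the number of arrays.

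Members, lists and tests were chosen with earlier results of these data known. The classes of 5 pseudogenes were set after the values were seen. All members are named. Values per pool are given at least for the 3 smallest p in each direction, *UBE2C*, *UBE2S* and *UBE2T*, and list genes are named at an unadjusted p under 0.05, at most 5 per direction. Exceptions are stated. Names came from the platform annotation, chromosomes and promoters from RefSeq (GRCh38.p14). The fit was tested on simulated data. Alternatives covered scaling, filters, variance model, array weights, probe set choice and each pool left out.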

Additional observations from a re-analysis of the deposited data

How the results depend on the processing

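No member passed the threshold in any of the 13 alternatives. The number of members higher at an unadjusted p under 0.05 was 1 throughout, except 2 without small pool 6, where *UBE2B* joined. The number lower was 2, or 3 without large pool 2, large pool 4 or small pool 7, where *UBE2MP1*, *UBE2C* or *UBE2DNL* joined. The median log2 fold change of the members was -0.08, between -0.17 and 0.03 with a pool left out, 0.01 after centring the arrays and -0.06 after a further quantile normalization. With the floor and the interquartile range filter it was -0.52, over the 6 members left among 2062 genes. A range over all arrays favors genes whose groups differ, and *UBE2J1*, *UBE2T* and *UBE2Q2P1* are among those 6. Their median and counts under it are therefore no separate result. That filter called 2 genes, neither of them a member. Over its genes the median was 0.31, where 229 genes (11.1%) were higher and 34 genes (1.65%) lower with an unadjusted p under 0.05, beside 1 higher and 2 lower of the 6 members. Over all genes the median was -0.11, -0.07 after quantile normalization and -0.03 after centring.

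Of 351 values of single members under an alternative 344 kept their sign or moved within the spread and 7 did not, each with a pool left out. These were *UBE2D4* (-0.11 without large pool 2), *UBE2J2* and *UBE2R2* (0.20 and 0.17 without large pool 3), *UBE2V1* (0.11 without large pool 4), *UBE2K* (0.25 without small pool 5), *UBE2H* (-0.17 without small pool 6) and *UBE2E2* (0.01 without small pool 7). With a pool left out *UBE2J1* ran between 0.86 and 1.22, *UBE2T* between -1.71 and -1.11 and *UBE2Q2P1* between -1.38 and -0.82. No paired analysis was possible because large and small pools share no replicate number. Levels under the floor limit *UBE2U*, *UBE2MP1* and *UBE2O*.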
